A study of Mus musculus with 4 samples.

Results

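Layer 6 intratelencephalic (IT) neurons were examined in single-nucleus RNA data from the primary motor area of C57BL/6N mice. A nucleus was taken as a member when it had UMIs of at least 4 of 8 marker genes: Rxfp1, Galnt14, Sulf1, Ntng2, Rspo2, Chrm2, Cdh9 and Ptpru. A UMI is 1 captured RNA molecule. Members also had at most 1 UMI of Cpa6, at most 5 of Tshz2 and at most 3 of Il1rapl2 and Deptor together, genes that mark other deep-layer neurons. The gate found 908 nuclei among 12605 excitatory nuclei, in 28619 barcodes in all. Excitatory nuclei were those with at least 500 genes, under 5% mitochondrial UMIs, and at least 2 UMIs of Slc17a7 and Sv2b that outnumbered those of Gad1 and Gad2.

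There were 4 groups of 1 library each. The first held mice kept awake by gentle handling (sleep deprivation). The second received, by local injection into the same brain area, an AAV8 that carries FLAG-tagged SIK3 lacking exon 13 (SIK3 Ex13del), a form the study calls gain-of-function. The third received the same vector with wild-type SIK3 (SIK3 WT). The last slept ad lib and was not sleep deprived. The human synapsin promoter, which is active in neurons, drives SIK3 in both vectors, and the labels name no vector for the sleep deprivation and ad lib sleep groups. The SIK3 WT library against ad lib sleep therefore compares the vector, the added SIK3 and the injection together. The labels do not give ages, the length of sleep deprivation, the time of day or the number of mice behind a library. Since each group is a single library, differences between groups have no test: the intervals below are 95% intervals, cover counting error only and do not cover variation between mice.

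IT neurons are the excitatory cells of the cortex that send axons to other cortical areas, to the opposite hemisphere and to the striatum. In layer 6 they lie among corticothalamic (CT) neurons, which project to the thalamus, and above layer 6b (L6b), a thin band of neurons that remain from the early subplate. SIK3 is a salt-inducible kinase that phosphorylates class IIa histone deacetylases and CRTC coactivators, and it is known from mouse genetics as a regulator of sleep need.

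The libraries held 43655557 to 54070503 UMIs in 5944 to 9438 barcodes. Depth differed between them, and the sleep deprivation library was the deepest: gated nuclei had a median of 16478.5 UMIs there, against 11806 with SIK3 Ex13del, 11923 with SIK3 WT and 9816.5 after ad lib sleep. Gated nuclei were deeper than the excitatory nuclei outside the gate and its main cluster, whose medians were 10894, 9417.5, 8800.5 and 7474 in the same order. Pairs of libraries shared 9 to 16 barcodes, and no shared barcode was a member in both.

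The gated nuclei were a mixture. Leiden clusters of the excitatory nuclei were made without the genes of the gate, and 1 cluster of 953 nuclei was named L6 IT-like because all 5 of Rxfp1, Galnt14, Sulf1, Ntng2 and Rspo2 stood among its 30 leading genes. It held 439 of the 908 gated nuclei, 48.3% (interval 45.1 to 51.7). The remaining members lay in L6 CT-like clusters (137 nuclei, 15.1%), in an L6b-like cluster (75 nuclei, 8.26%), in unnamed clusters (159 nuclei, 17.5%), and in small numbers in clusters led by genes of other classes, including oligodendrocytes (30 nuclei), interneurons (14) and vascular cells (12). The 159 nuclei include 18 in a cluster with the astrocyte marker Slc1a3 among its leading genes. They also include 17 in a cluster with the microglia markers Csf1r and Inpp5d, and 14 in a cluster with the interneuron markers Erbb4 and Lhx6. The label therefore fits fewer than 1 in 2 gated nuclei by this measure, and 3 sets are kept apart below: the gated nuclei, the gated nuclei inside the cluster, and the whole cluster. A doublet score, which looks for barcodes that hold more than a single nucleus, called 6.09% of the L6 IT-like cluster. It called 27.2% and 82.7% of the oligodendrocyte-like clusters, 52.6% of the interneuron-like and 26.0% of the vascular-like cluster. Of the unnamed clusters with Slc1a3, with Csf1r and Inpp5d, and with Erbb4 and Lhx6, it called 39.1%, 45.9% and 56.1%. Whether members there are doublets was not tested.

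The mixture differed between libraries. The cluster held 80 of 208 gated nuclei after sleep deprivation (38.5%, 31.8 to 45.4), against 156 of 304 after ad lib sleep (51.3%, 45.5 to 57.1). It held 95 of 187 with SIK3 Ex13del (50.8%), against 108 of 209 with SIK3 WT (51.7%). Nuclei of the L2/3 IT-like cluster were 12 of the 208 gated nuclei after sleep deprivation, and 0, 6 and 1 of those with SIK3 Ex13del, with SIK3 WT and after ad lib sleep. An unnamed cluster with the L2/3 IT markers Otof and Rasgrf2 among its leading genes held 16, 8, 4 and 7 members in the same order. Summed levels of 8 L2/3 IT markers in the gated nuclei were 468 CPM after sleep deprivation and 259 CPM after ad lib sleep. CPM are UMIs of the gene per 1000000 UMIs of the set. Those of 8 L6b markers were 149 and 82.4 CPM. In the whole cluster the same sums were 233 and 205 CPM for L2/3 and 18.9 and 17.7 CPM for L6b. The makeup of the gate thus differed between sleep deprivation and ad lib sleep, and its part in the gated ratios was not tested. Each value of the sleep deprivation contrast in gated nuclei is given beside that of the cluster.

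**Figure D1:**
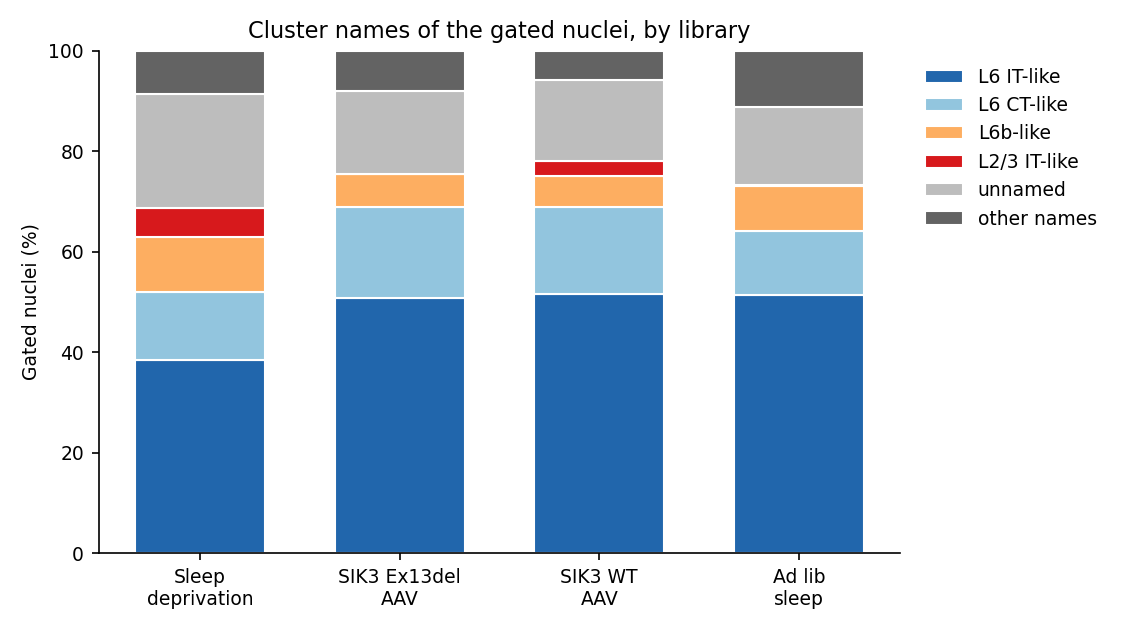
Bars show, for each library, the percentage of gated nuclei in clusters of each name (blue, L6 IT-like; light blue, L6 CT-like; orange, L6b-like; red, L2/3 IT-like; grey, unnamed; dark grey, all other names). The L6 IT-like part is 38.5% after sleep deprivation and between 50.8% and 51.7% in the other libraries.

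The number of markers seen in a nucleus tracked the share that lay in the cluster. Just outside the gate, 846 nuclei had 3 of the 8 markers and passed the other limits, and 8.39% of them were in the cluster. Just inside it, 416 nuclei had 4 markers, and 23.8% were in the cluster. The share was 53.5% with 5 markers, 81.2% with 6, 81.3% with 7 and 81.5% with 8. Of the 953 cluster nuclei, 337 had more than 3 UMIs of Il1rapl2 and Deptor and 229 had fewer than 4 markers, counts that overlap. Il1rapl2, which encodes a synaptic protein of the interleukin-1 receptor family, had 355 CPM in the cluster over the summed libraries, so the limit on it kept out nuclei of this cluster.

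Gated nuclei were 7.88% (6.88 to 8.97) of excitatory nuclei after sleep deprivation, against 7.35% (6.57 to 8.18) after ad lib sleep. They were 7.19% (6.23 to 8.25) with SIK3 Ex13del, against 6.48% (5.65 to 7.38) with SIK3 WT. The intervals of each pair overlap. Nuclei with at least 5000 UMIs were also thinned to 5000 UMIs before gating, and shallower nuclei were left out. The excitatory nuclei left out numbered 584, 522, 673 and 1068 after sleep deprivation, with SIK3 Ex13del, with SIK3 WT and after ad lib sleep. The shares of the thinned excitatory nuclei were 6.38%, 5.74%, 5.31% and 6.20% in the same order. Of the gated nuclei of this thinned set, 70.9% to 76.8% lay in the cluster. The whole cluster was 6.78% of excitatory nuclei after sleep deprivation and 7.59% after ad lib sleep, and 8.54% with SIK3 Ex13del and 7.38% with SIK3 WT.

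The 8 marker genes chose the members, so their levels are a description. Rxfp1 (chromosome 3, 79641611 to 79737880, minus strand, mm10) encodes a receptor for the peptide hormone relaxin. In the whole cluster its level was 122 CPM after sleep deprivation, 127 CPM with SIK3 Ex13del, 183 CPM with SIK3 WT and 126 CPM after ad lib sleep, against 13.3 to 16.9 CPM in excitatory nuclei outside the gate and the cluster. In the gated nuclei it was at 72.2, 83, 117 and 107.5 CPM in the same order of libraries. The SIK3 WT library thus stood highest in both sets and the other 3 lay close together in the cluster.

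Galnt14 (chromosome 17, 73493228 to 73710453, minus strand), an enzyme that starts O-linked glycosylation, had 309, 231, 267 and 256 CPM in the cluster in the same order of libraries, against 23 to 40.8 CPM outside. A UMI of it was seen in 76.5% of cluster nuclei and 70.6% of gated nuclei, against 14.6% of excitatory nuclei outside. Sulf1 (chromosome 1, 12692277 to 12861192, plus strand) removes sulfate groups from heparan sulfate and had 174 CPM in the cluster over the summed libraries, but it was also at 101 CPM in L6 CT-like nuclei. Ntng2 (chromosome 2, 29194541 to 29253005, minus strand), the membrane-anchored guidance protein netrin-G2, had 89.3 CPM in the cluster against 9.86 CPM in L6 CT-like nuclei. Rspo2 (chromosome 15, 43020794 to 43170826, minus strand), a secreted enhancer of Wnt signalling, had 122 CPM in the cluster and 84.3 CPM in L5 IT-like nuclei. Sulf1 was thus also seen in L6 CT-like nuclei and Rspo2 in L5 IT-like nuclei. Cluster nuclei were not removed from these comparison groups. Of the cluster, 337 nuclei had more than 3 UMIs of Il1rapl2 and Deptor, the limit that sets the L5 IT-like group. The L5 IT-like values here and below may therefore count cluster nuclei again.

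The remaining 3 markers of the gate, summed over libraries in the same way, had similar profiles. Chrm2 (chromosome 6, 36388084 to 36528414, plus strand), the M2 muscarinic acetylcholine receptor, had 200 CPM in the cluster and 40.7 CPM outside. Cdh9 (chromosome 15, 16728756 to 16857094, plus strand), a type II cadherin used in cell adhesion, had 456 CPM in the cluster, 226 CPM in L6 CT-like nuclei and 93.7 CPM outside. Ptpru (chromosome 4, 131768457 to 131838288, minus strand), a receptor tyrosine phosphatase, had 87.1 CPM in the cluster and 19.0 CPM outside.

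**Figure D2:**
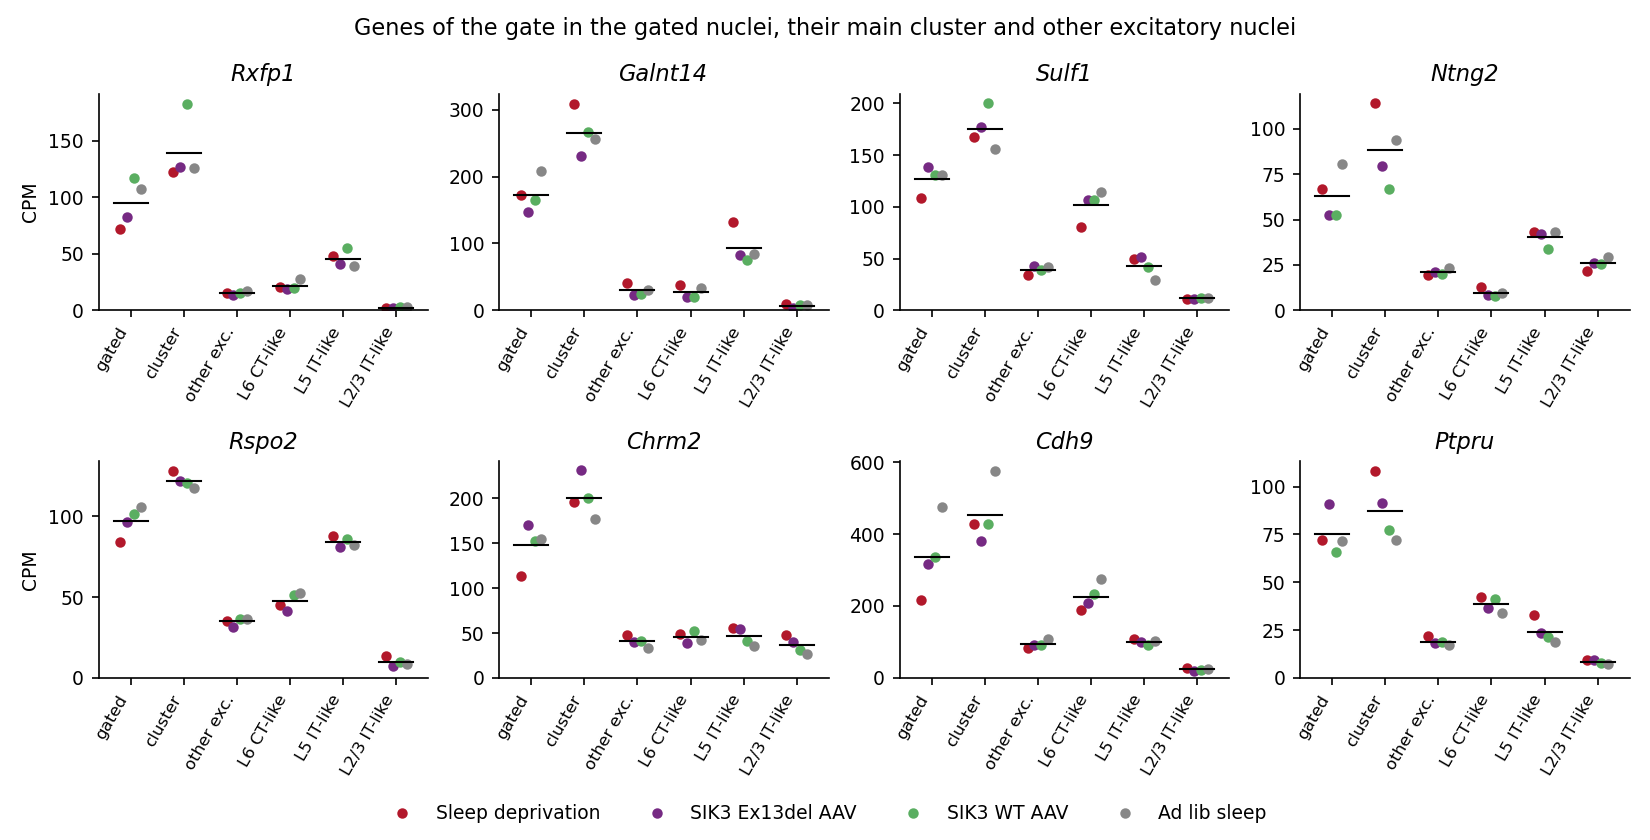
Each panel shows 1 gene of the gate, with CPM on the vertical axis and a point for each library in the gated nuclei, the whole cluster, other excitatory nuclei and 3 marker-defined comparison groups; lines are means of the 4 libraries. All 8 genes are highest in the cluster, and Rspo2 (122 against 84.3 CPM) is nearest to its level in L5 IT-like nuclei. The comparison groups may include cluster nuclei.

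Genes outside the gate also set the cluster apart from other excitatory nuclei, as a description, since clusters are built from such genes. Ranked by the lowest ratio of any library, the first 4 were Gm49876 (84.0, 85.0, 71.9 and 93.5 CPM in the cluster, 8.84 to 11.3 times the outside level within each library), Gm49878 (7.79 to 9.79 times), Slc26a4 and Oprk1. Slc26a4, the anion exchanger pendrin, was at 35.8, 47.9, 43.1 and 46.2 CPM, 4.78 to 7.06 times the outside level. Oprk1, the kappa opioid receptor, was at 29.0, 32.9, 45.1 and 44.9 CPM, 4.49 to 11.3 times. In L5 IT-like nuclei the mean levels of Gm49876, Gm49878, Slc26a4 and Oprk1 were 24.13, 17.98, 24.15 and 6.555 CPM. All 4 excesses over the outside level were seen in every library, which the ranking by the lowest ratio favours. This is no separate result.

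Further genes of this kind act in growth factor signalling and adhesion. Bmpr1b, a receptor for bone morphogenetic proteins, was at 153 to 213 CPM, 3.23 to 3.48 times the outside level. Its mean level in L5 IT-like nuclei was 121 CPM, and it was also a leading gene of an L4/5 IT-like cluster. Angpt1, which encodes the secreted factor angiopoietin-1, was 3.61 to 4.21 times the outside level, the cadherin Cdh4 2.99 to 3.30 times, and the teneurin Tenm3, which guides axon targeting, 2.89 to 3.51 times. Mean levels of these 3 genes in L5 IT-like nuclei were 13.53, 64.67 and 219 CPM. On the low side, Cux2, a transcription factor of upper-layer neurons, was at 3.06 to 7.51 CPM in the cluster against 127 to 137 CPM outside. Gpc6, a heparan sulfate proteoglycan, was at 26.1 to 39.7 CPM against 601 to 743 CPM. Both low genes were below the outside level in every library, which their ranking by the highest ratio of any library favours.

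The gated nuclei shared part of this profile. Gm49876 (6.04 to 7.25 times the outside level), Gm49878, Angpt1, Cdh4 and Tenm3 were among the 15 leading genes of both sets. The gated list also held 4930555F03Rik, C130073E24Rik, Gm45321, Gm2516 and Fbxl7, which are the first 5 leading genes of the L6b-like cluster. Il1rapl2 was 17.6 to 52.0 CPM in gated nuclei, which the gate sets by its limit.

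Ptprk, a receptor tyrosine phosphatase outside the gate, was at 606 to 710 CPM in the cluster, against 331 to 397 CPM outside and 115 to 174 CPM in L6 CT-like nuclei. Summed L6 CT markers were 270 to 423 CPM in the cluster and 1498 to 1627 CPM outside. In the gated nuclei this sum was 1374 to 1623 CPM, close to the level outside. The sum includes Cpa6, which the gate limits to at most 1 UMI, so the gate partly sets the gated value. No UMI of Car3, the gene that names a separate IT type of layer 6, was counted in the cluster. Only 9 were counted in all outside nuclei, so this absence cannot decide on that type. Of its other listed genes, Oprk1, Gnb4, Nnat and Gng2 were 4.49 to 11.3, 1.80 to 2.22, 1.55 to 2.28 and 1.28 to 1.40 times the outside level. Nr2f2 was 0.293 to 0.990 times, and Synpr and Nr4a2 varied (0.196 to 1.04 and 0.842 to 3.28 times). Whether the cluster holds that type was not tested.

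Families of the marker genes were also read. Ptprt, a relative of Ptpru and Ptprk, was at 896 to 1056 CPM in the cluster, 2.54 to 2.75 times the outside level, whereas their relative Ptprm was at 9.86 to 31.8 CPM, 0.0908 to 0.259 times. Of the heparan sulfate enzymes, Sulf2 was at 13.9 to 29.7 CPM (0.260 to 0.446 times), the sulfotransferase Hs3st4 at 58.6 to 116 CPM (0.0745 to 0.158 times) and Ndst3 at 26.5 to 38.6 CPM (0.131 to 0.187 times). Hs3st4 was at 1942 to 2070 CPM in L6 CT-like nuclei. The GalNAc transferase relative Galntl6 was at 51.5 to 94.5 CPM in the cluster and 588 to 887 CPM outside, the opposite direction to Galnt14.

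Partners of the secreted and surface markers were present at various levels. Lrrc4, the synaptic ligand of netrin-G2, was at 225 to 276 CPM in the cluster and 197 to 236 CPM outside. The R-spondin receptor Lgr4 was at 20 to 32 CPM and the Wnt co-receptor Lrp6 at 67.6 to 84.2 CPM in the cluster. No UMI of Rxfp3, Rxfp4 or the relaxin-3 gene Rln3 was counted there, and Rxfp2 was at 6.3 to 8.5 CPM. Among muscarinic receptors, Chrm3 was at 1005 to 1192 CPM in the cluster and 827 to 854 CPM outside, and Chrm1 did not separate the sets (34.3 to 37.5 CPM against 33.5 to 39.7 CPM).

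Sleep deprivation against ad lib sleep asks what extended waking leaves in these neurons. Fgf1, a fibroblast growth factor, the glucocorticoid-responsive co-chaperone Fkbp5, the serine incorporator Serinc2 and the transcript 9630014M24Rik were higher after sleep deprivation by over 2-fold in the gated nuclei and in the cluster. Lama2, Rad51ap2 and Zfp804b were lower in both sets by the same measure. Of 9 measured cholesterol synthesis genes 8 were lower, and most chaperones and postsynaptic scaffolds were slightly higher. Of 194 genes past 1.5-fold upward in the gated nuclei, 77 were also past it in the cluster. The sets share 439 nuclei and the same libraries, so likeness between them is not an independent result.

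A gene counted as measured when the mean of its 2 libraries reached 20 CPM and their sum 100 UMIs. Of 7012 genes measured in the gated nuclei, 194 were at least 1.5-fold higher after sleep deprivation (2.77%) and 198 at least 1.5-fold lower (2.82%). In the cluster 222 were higher (3.24%) and 253 lower (3.7%) by this size. Of 6659 genes measured in both sets, 77 were higher in both (1.16%) and 91 lower in both (1.37%). Counting any ratio above 1, 51.6% of measured genes were higher in the gated nuclei and 49.9% in the cluster. These shares are the background for the genes named below, which were chosen by size.

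Fgf1 had 168 CPM in gated nuclei after sleep deprivation and 69.7 CPM after ad lib sleep, a ratio of 2.41 (2.07 to 2.81). In the cluster it had 138 and 27.9 CPM, a ratio of 4.94 (3.88 to 6.34), and in the gated nuclei of the cluster the ratio was 5.03 (3.53 to 7.34). The SIK3 Ex13del and SIK3 WT libraries had 32.1 and 28.9 CPM of Fgf1 in the cluster, near ad lib sleep, so sleep deprivation stood alone. A UMI of it was seen in 46.9% of cluster nuclei after sleep deprivation (39.4 to 54.5) and in 16.9% after ad lib sleep (12.9 to 21.5). In oligodendrocyte nuclei, marked by at least 3 UMIs of Mog, Mobp and Mag, the shares were 23.4% and 13.8%, at median depths of 3435 and 2042 UMIs. In inhibitory nuclei, marked by at least 3 UMIs of Gad1 and Gad2, the Fgf1 level was 332 CPM after sleep deprivation and 310 CPM after ad lib sleep. In excitatory nuclei outside the gate and the cluster the ratio was 2.93, and in L6 CT-like, L5 IT-like and L2/3 IT-like nuclei 2.98, 3.24 and 3.62.

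Fkbp5 limits the activity of the glucocorticoid receptor and is itself induced by it. It had 50 CPM in gated nuclei after sleep deprivation, against 18.9 CPM after ad lib sleep, a ratio of 2.65 (1.99 to 3.57). In the cluster it had 40.4 and 14.6 CPM (2.76, 1.93 to 4.02), and outside the ratio was 2.67. Inhibitory nuclei had 58.0 and 30.4 CPM and oligodendrocyte nuclei 125 and 29.7 CPM, so the difference was in every class read. Zbtb16, a transcription factor that glucocorticoids induce, had 134 and 79.2 CPM in gated nuclei (1.69, 1.45 to 1.96) and a ratio of 1.66 in the cluster. Of 9 measured glucocorticoid-responsive genes, 5 were higher in the gated nuclei and 6 in the cluster, with medians of 0.35 and 0.02 on the log2 scale, where the median of all measured genes was 0.01 and -0.001. With a floor of 50 CPM, which 5 of these genes reached, the gated median was -0.027. Fkbp5 and Zbtb16 were the 2 members of that list past 1.5-fold.

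Serinc2 had 55.9 CPM in gated nuclei after sleep deprivation and 23 CPM after ad lib sleep (2.43, 1.87 to 3.18), and 57.6 and 22.1 CPM in the cluster (2.6, 1.94 to 3.53). Its ratio was 2.505 outside, and 1.87, 3.51 and 8.07 in L6 CT-like, L5 IT-like and L2/3 IT-like nuclei. 9630014M24Rik had 78.9 and 35.2 CPM in gated nuclei (2.24) and 56.8 and 21.1 CPM in the cluster (2.70), and outside the ratio was 2.83. Adra1b, the alpha-1B adrenergic receptor for noradrenaline, had 41.6 and 21.3 CPM in gated nuclei (1.96, 1.47 to 2.62) and 50.8 and 24.8 CPM in the cluster (2.05, 1.53 to 2.75), and outside the ratio was 1.15. Spred3, a feedback inhibitor of MAP kinase signalling, had ratios of 2.27 and 2.23 in gated nuclei and cluster. Within the cluster, and chosen after its values were seen, Elmo1, an adaptor of Rac activation, had 222 CPM after sleep deprivation, against 94.9 CPM after ad lib sleep (2.34, 2.03 to 2.71), with 1.36 outside and 1.02, 1.43 and 1.65 in L6 CT-like, L5 IT-like and L2/3 IT-like nuclei. Arhgap31, which switches off Rac and Cdc42, Ubash3b and the sorting receptor Sorcs2, chosen in the same way, had cluster ratios of 2.80, 2.70 and 3.09. Their ratios outside were 1.845, 1.696 and 1.313.

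Other high ratios of the gated nuclei were not seen in the cluster. Svil, an L6b marker, had 76.8 CPM after sleep deprivation against 27.2 CPM after ad lib sleep in gated nuclei, and 1.07 against 1.02 CPM in the cluster, from 3 UMIs in each library. Cux2 had 93.2 and 36.0 CPM in gated nuclei and 3.93 and 3.06 CPM in the cluster. Gpc6 had 345 and 139 CPM in gated nuclei and 39.7 and 26.2 CPM in the cluster. Cux2 is an L2/3 marker with a gated ratio of 2.59. It had 46.7 and 49.1 CPM in gated nuclei with SIK3 Ex13del and SIK3 WT. Those libraries held 0 and 6 members in the L2/3 IT-like cluster, and 8 and 4 in the unnamed cluster with Otof and Rasgrf2. The part of such members in the ratio was not tested. Igsf11, Gm12296 and Sntg2 had gated ratios of 2.51, 2.43 and 2.51 and cluster ratios of 1.53, 1.28 and 1.78. Gm34544 had a ratio of 2.65 in gated nuclei and of 1.72 in the cluster, but of 0.33 in the gated nuclei of the cluster.

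Ttr, the thyroid hormone carrier of the choroid plexus, had the highest ratio of the gated nuclei, with 86.0 CPM after sleep deprivation and 4.72 CPM after ad lib sleep. Of its 337 UMIs in the sleep deprivation library, 253 lay in 1 nucleus. A UMI of Ttr was seen in 32.7% of gated nuclei after sleep deprivation, in 29.7% of inhibitory and in 26.7% of oligodendrocyte nuclei, at median depths of 16478.5, 12460 and 3435 UMIs. After ad lib sleep these shares were 4.93%, 5.61% and 4.18%. The levels in inhibitory and oligodendrocyte nuclei were 26.8 and 88.6 CPM after sleep deprivation, and 16.1 and 14.1 CPM after ad lib sleep. The source of these UMIs was not tested.

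Lama2, the laminin alpha-2 chain of the extracellular matrix, had 15.1 CPM in gated nuclei after sleep deprivation and 39.0 CPM after ad lib sleep (0.386, 0.279 to 0.529). In the cluster it had 20.4 and 54.4 CPM (0.375, 0.272 to 0.510), and outside the ratio was 0.812. Rad51ap2 had 22.7 and 52.6 CPM in gated nuclei (0.432) and 14.7 and 52.7 CPM in the cluster (0.278), and its ratio outside was 0.353. Zfp804b, a zinc finger protein gene, had 114 and 279 CPM in gated nuclei (0.408) and 256 and 532 CPM in the cluster (0.481, 0.440 to 0.526), and its ratio outside was 0.602. Plppr1, a membrane protein of growing neurites, had 18.4 and 52.0 CPM in gated nuclei (0.354) and ratios of 0.534 in the cluster and 0.646 outside. The kappa opioid receptor gene Oprk1 had ratios of 0.386 in gated nuclei, 0.645 in the cluster and 0.688 outside. Il1rapl2, the lowest ratio of the gated nuclei at 0.339, is limited by the gate and was 344 against 362 CPM in the cluster.

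Genes that mark the cluster differed between these libraries. Chosen after their values were seen, Cdh4 had 233 CPM in the cluster after sleep deprivation and 124 CPM after ad lib sleep (1.87, 1.64 to 2.13), and Angpt1 30.4 and 55.1 CPM (0.552, 0.419 to 0.722). Outside, their ratios were 1.78 and 0.529. The genes of the gate itself were mostly lower in gated nuclei after sleep deprivation and mostly higher in the cluster. Cdh9 had 216 CPM after sleep deprivation and 475 CPM after ad lib sleep in gated nuclei (0.455) and 427 and 575 CPM in the cluster (0.742). Of the 8 markers, 1 was higher in the gated nuclei and 6 in the cluster. Since these genes chose the members and the share of cluster nuclei among members differed, no reading is drawn from them.

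**Figure D3:**
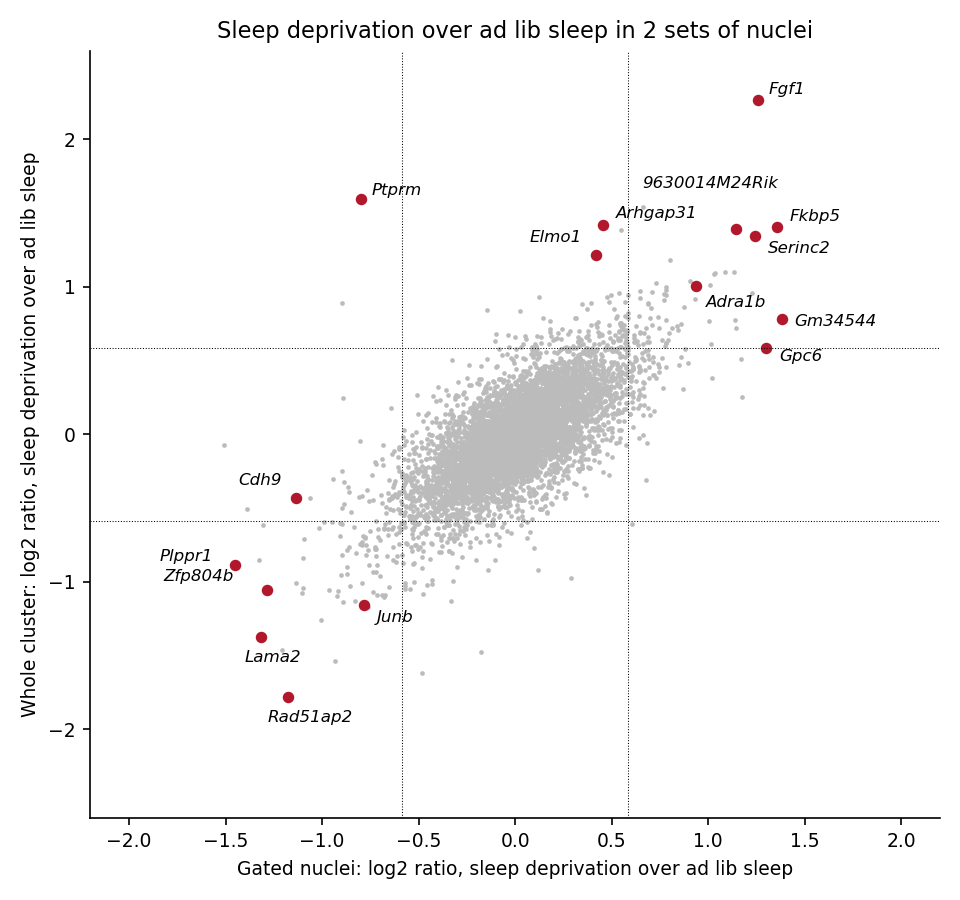
Each point is 1 of 6659 genes measured in both sets, with the log2 ratio of sleep deprivation over ad lib sleep in gated nuclei on the horizontal axis and in the whole cluster on the vertical axis; dotted lines mark 1.5-fold. Fgf1, Fkbp5 and Serinc2 lie high in both, Lama2 and Rad51ap2 low in both, and Ptprm has opposite signs (0.568 in gated nuclei and 3.23 in the cluster, as ratios).

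Cholesterol synthesis genes were mostly lower after sleep deprivation. Of 24 listed genes 9 were measured in the gated nuclei, 1 was higher, 5 were at least 1.5-fold lower, and the median log2 ratio was -0.58, where 2.82% of all measured genes were lower by that size and their median was 0.01. In the cluster 2 of 9 were past that size and the median was -0.43, and in excitatory nuclei outside, where 1.55% of all genes were lower by that size, none of 8 was and the median was -0.27. Sqle, squalene epoxidase, had 14.8 CPM after sleep deprivation and 25.7 CPM after ad lib sleep in gated nuclei (0.576) and a cluster ratio of 0.505. Msmo1 had 21.4 and 40.5 CPM (0.530) and a cluster ratio of 0.791 (0.572 to 1.09). Hmgcs1, an early enzyme of the pathway, had 30.1 and 53.5 CPM in gated nuclei (0.564, 0.443 to 0.715) and 31.1 and 42.2 CPM in the cluster (0.738, 0.554 to 0.978).

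Genes of this pathway are classic targets of the SREBP factors, and the promoter windows were searched for a sterol regulatory element because the members moved together. The letters TCACNCCAC, on either strand, occur in 1.24% of 32851 RefSeq promoter windows of the GRCm38.p6 build, each from 250 bases before to 50 bases after a start. Of the 24 listed genes 17 had a window, with 20 windows in all. The letters were found in 1 window, that of Hmgcs1 at chr13:119690101-119690400 on the plus strand. It is shown because it is the only window of the list with the letters, which are in capitals.
Hmgcs1 promoter: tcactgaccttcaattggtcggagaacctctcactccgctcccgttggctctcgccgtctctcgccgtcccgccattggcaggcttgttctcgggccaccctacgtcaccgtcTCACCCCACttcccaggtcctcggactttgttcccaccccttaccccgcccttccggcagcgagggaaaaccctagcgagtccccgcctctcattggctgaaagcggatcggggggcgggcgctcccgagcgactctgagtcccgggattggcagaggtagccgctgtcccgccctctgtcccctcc
The match is a description of the sequence and says nothing of a bound factor.

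Protein-folding and synaptic groups were slightly higher after sleep deprivation. Of 11 measured endoplasmic reticulum folding genes, 10 were higher in the gated nuclei (median log2 ratio 0.34) and 8 in the cluster (0.25), but in gated nuclei thinned to 5000 UMIs, where only 3 of these genes were measured, the median was -0.24. Hspa5, the main chaperone of that compartment, had 66.6 CPM after sleep deprivation and 40.8 CPM after ad lib sleep (1.64, 1.33 to 2.02), and a cluster ratio of 1.31 (1.02 to 1.68). Of 14 cytosolic chaperones 13 were higher in the gated nuclei (median 0.22), and of 15 in the cluster 11 (0.12). Hsp90ab1, the constitutive HSP90, had 331 and 201 CPM in gated nuclei (1.65, 1.5 to 1.81) and a cluster ratio of 1.32 (1.19 to 1.47).

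Of 19 postsynaptic scaffolds, 16 were higher in the gated nuclei (median 0.22) and 15 in the cluster (0.28), and the median outside was 0.29. Shank1, a scaffold of the excitatory synapse, had 183 CPM after sleep deprivation and 113 CPM after ad lib sleep in gated nuclei (1.62, 1.43 to 1.84) and 185 and 120 CPM in the cluster (1.55, 1.35 to 1.78). Cacng2, the AMPA receptor partner stargazin, had 126 and 70.0 CPM in gated nuclei (1.80) and 129 and 77.5 CPM in the cluster (1.67). Both ratios were of a like size in nuclei outside (1.57 and 1.46).

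Activity-regulated genes did not move as a group. Of 9 rapid immediate early genes, 5 were higher in the gated nuclei (median 0.11) but 2 in the cluster (median -0.28). Junb, a subunit of AP-1, had 27.1 CPM after sleep deprivation and 47.3 CPM after ad lib sleep in gated nuclei (0.573, 0.444 to 0.736) and 24.3 and 55.4 CPM in the cluster (0.439, 0.326 to 0.586). Of 12 delayed activity-regulated genes, 5 were higher in the gated nuclei (median -0.04) and 7 in the cluster (0.02). Vgf, a secreted neuropeptide precursor, had 41.1 and 21.9 CPM (1.88, 1.42 to 2.51) with a cluster ratio of 1.52, and the granin Scg2 had 50.3 and 33.4 CPM (1.51, 1.19 to 1.92) with a cluster ratio of 1.48. Bdnf, a neurotrophin, had 27.5 CPM after sleep deprivation and 39.1 CPM after ad lib sleep in the cluster (0.704, 0.521 to 0.948). Of the delayed list, 15 of 22 genes had a promoter window, with 24 windows in all. The full cAMP response element TGACGTCA was found in 3 of these windows, for Pcsk1, Plk2 and Scg2. These letters occur in 1.79% of all windows. Scg2 is the member of the 3 past 1.5-fold in the gated nuclei, and its window, chr1:79439977-79440276 on the minus strand, is shown with the element in capitals.
Scg2 promoter: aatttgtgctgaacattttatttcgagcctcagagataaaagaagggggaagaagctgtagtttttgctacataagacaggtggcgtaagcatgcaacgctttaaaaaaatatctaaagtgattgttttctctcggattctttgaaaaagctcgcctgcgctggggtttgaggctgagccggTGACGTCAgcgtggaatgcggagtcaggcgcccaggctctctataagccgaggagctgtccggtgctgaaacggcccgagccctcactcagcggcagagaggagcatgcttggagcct

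Of 22 measured genes around SIK kinases (their activator LKB1, class IIa deacetylases and CRTCs), 10 were higher in the gated nuclei and 11 in the cluster, with medians of -0.01 and -0.02, and none was past 1.5-fold. Of the core clock and output genes, 7 of 13 were higher in the gated nuclei and 7 of 12 in the cluster, with medians of 0.01 and 0.02. Arntl, the clock activator BMAL1, had 73.5 CPM after sleep deprivation and 48.7 CPM after ad lib sleep (1.51, 1.24 to 1.84) and a cluster ratio of 1.49. Mitochondrially encoded transcripts, a sign of RNA from outside the nucleus, summed to 4059 CPM in gated nuclei after sleep deprivation and 3245 CPM after ad lib sleep, and to 3253 and 3122 CPM in the cluster. Their part in the results was not tested.

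**Figure D4:**
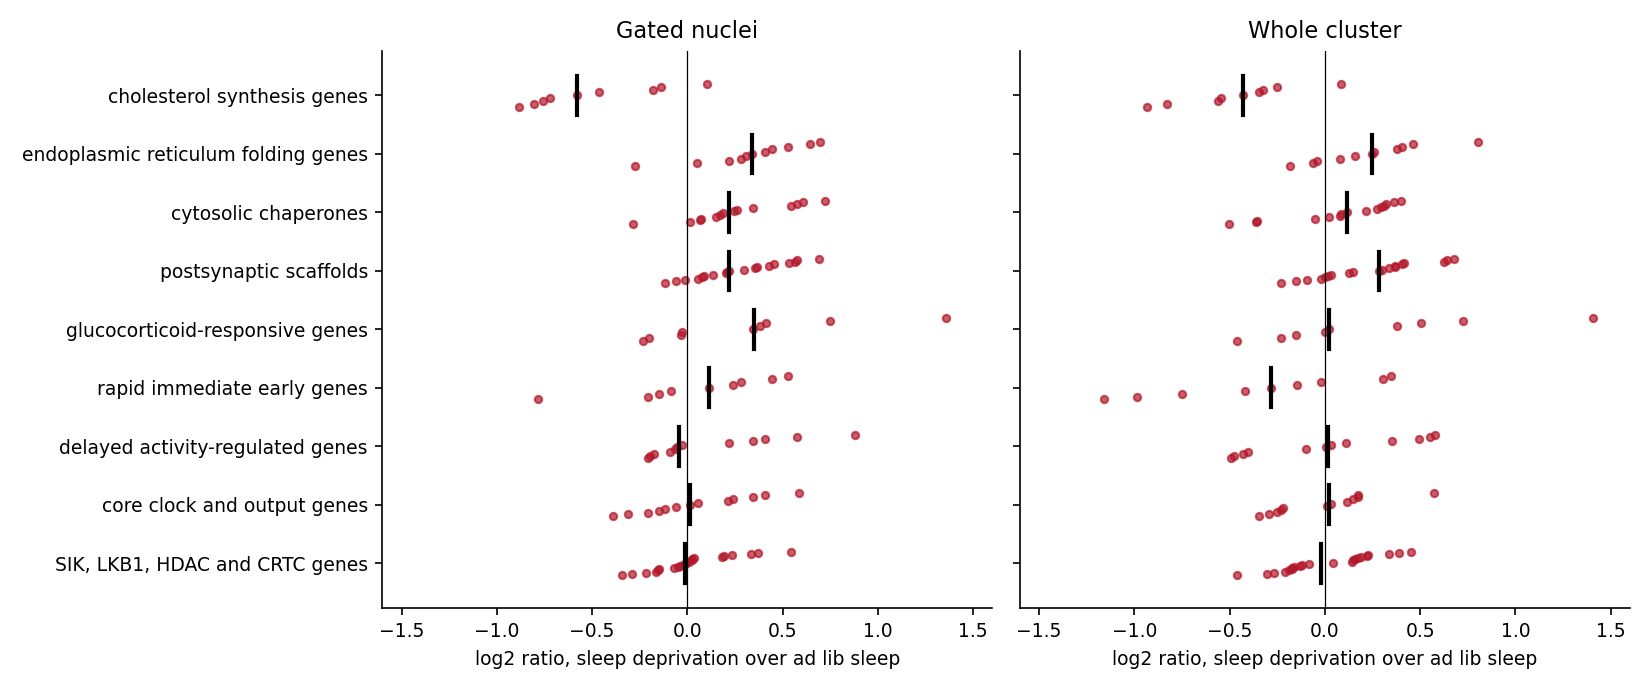
Points are measured genes of 9 lists, with the log2 ratio of sleep deprivation over ad lib sleep on the horizontal axis, in gated nuclei (left) and the whole cluster (right); black bars are list medians. Cholesterol synthesis genes lie to the left in both sets (medians -0.58 and -0.43), and rapid immediate early genes change side (0.11 and -0.28).

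SIK3 Ex13del against SIK3 WT asks what the mutant kinase adds to the same vector. The vector and Sik3 were read first. The vector feature WPRE_pA had 35.5 CPM in gated nuclei with SIK3 Ex13del and 46.6 CPM with SIK3 WT, and 88.1 and 58.5 CPM in the cluster. No UMI of it was counted in the 208 gated nuclei after sleep deprivation or the 304 after ad lib sleep, where 3 UMIs would be 0.766 and 0.886 CPM. It was seen in 50 of 187 gated nuclei with SIK3 Ex13del (26.7%, 20.5 to 33.7) and in 49 of 209 with SIK3 WT (23.4%, 17.9 to 29.8). In the cluster the shares were 26.1% and 21.4%, and 56 of the 228 UMIs with SIK3 Ex13del lay in 1 nucleus. Sik3 (chromosome 9, 46012820 to 46224194, plus strand) had 184 CPM in gated nuclei with SIK3 Ex13del, 194 CPM with SIK3 WT and 154 CPM after ad lib sleep, and 163, 149 and 115 CPM in the cluster. Whether vector transcripts are counted under Sik3 is not given in the sources used here.

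Lama2, Gm32647, Nptx2 and Bdnf were higher with SIK3 Ex13del in the gated nuclei and in the cluster, and Kcnh5 and Gm15680 were lower in both. Of 6939 genes measured in gated nuclei, 127 were at least 1.5-fold higher with SIK3 Ex13del (1.83%) and 56 at least 1.5-fold lower (0.807%). With TMM scaling the split was 79 higher and 92 lower, so the excess of higher genes depends on the scaling. In the cluster 112 were higher (1.64%) and 76 lower (1.11%). Of 6637 genes measured in both sets, 26 were higher in both (0.392%) and 14 lower in both (0.211%). Ratios above 1 were found for 55.1% of measured genes in the gated nuclei and 51% in the cluster. Another cluster of 100 excitatory nuclei held 76 from the SIK3 Ex13del library. Olfr115, Gm32647, Bdnf, Nptx2 and the vector feature were among its 30 leading genes. It held 3 gated nuclei. Its nuclei are not in the L6 IT-like cluster, and the effect of that split on the cluster ratios was not tested.

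Lama2 had 50.1 CPM in gated nuclei with SIK3 Ex13del and 20.1 CPM with SIK3 WT (2.49, 1.81 to 3.46), and 80.8 and 22.5 CPM in the cluster (3.59, 2.66 to 4.90). The ratio was 1.18 outside, 1.35 in L6 CT-like nuclei and 2.77 in L5 IT-like nuclei. Over the 4 libraries its cluster level was 20.4 CPM after sleep deprivation, 80.8 CPM with SIK3 Ex13del, 22.5 CPM with SIK3 WT and 54.4 CPM after ad lib sleep. Lama2 is also a gene of oligodendrocytes, which had 160 to 208 CPM of it in nuclei marked by their genes. Summed levels of 10 oligodendrocyte markers in the cluster were 220, 204, 243 and 185 CPM in the same order of libraries, and their part in the Lama2 values was not tested.

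Nptx2, a pentraxin secreted at excitatory synapses after activity, had 25.4 CPM in gated nuclei with SIK3 Ex13del and 9.53 CPM with SIK3 WT (2.67, 1.68 to 4.33), a mean under the minimum for measured genes. In the cluster it had 32.9 and 10.3 CPM (3.20, 2.04 to 5.17), and outside the ratio was 3.22. Bdnf had 42.2 and 24 CPM in gated nuclei (1.76, 1.29 to 2.41) and 71.1 and 28.9 CPM in the cluster (2.46, 1.87 to 3.28), and outside the ratio was 1.70. A UMI of Bdnf was seen in 36.0% of cluster nuclei with SIK3 Ex13del and in 18.1% with SIK3 WT, against 3.41% and 2.86% of oligodendrocyte nuclei, which are shallower (median 2525 and 2504 UMIs). Inhibitory nuclei had 17.4 CPM of Bdnf with SIK3 Ex13del and 4.74 CPM with SIK3 WT, with a UMI in 9.18% and 3.81% of them. Their Nptx2 levels were 13.7 CPM with SIK3 Ex13del and 3.89 CPM with SIK3 WT, so both genes were also higher with SIK3 Ex13del in inhibitory nuclei. Both genes thus had their highest cluster level of the 4 libraries with SIK3 Ex13del. Of 12 delayed activity-regulated genes, 9 were higher with SIK3 Ex13del in the gated nuclei (median 0.17) and in the cluster (0.31), where the medians of all measured genes were 0.03 and 0.01. Of the rapid immediate early genes, 6 of 9 were higher in the gated nuclei (median 0.07) and 7 of 10 in the cluster (0.18).

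Gm32647 (chromosome 7, 94042691 to 94709171, plus strand) had 35.5 CPM in gated nuclei with SIK3 Ex13del and 13.8 CPM with SIK3 WT (2.58, 1.76 to 3.85), and 50.3 and 16.6 CPM in the cluster (3.03). Its ratio outside was 2.40. Gm19951 had 68.8 and 34.6 CPM in gated nuclei (1.99) and 70.7 and 35.6 CPM in the cluster (1.99), and its ratio outside was 2.02. The ratio of Gm19951 was thus alike in all excitatory sets, and it had 24.5 and 25.7 CPM in gated nuclei after sleep deprivation and ad lib sleep. Olfr115, an olfactory receptor gene, had the highest gated ratio (29.9 and 10.6 CPM, 2.82) but 2.32 and 1.19 CPM in the cluster, and 25 of its 80 UMIs with SIK3 Ex13del lay in 1 nucleus. Grik1, a kainate receptor subunit, and Dock10 had gated ratios of 2.36 and 1.98 and cluster ratios of 1.19 and 0.822, and in the thinned set both were below 1 (0.428 and 0.878). Neat1, a nuclear noncoding RNA, had gated and cluster ratios of 2.04 and 2.61, the second from 12.4 and 4.74 CPM, but in the gated nuclei of the cluster its ratio was 0.742, from 7 and 10 UMIs.

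On the low side, Rorb, a transcription factor of layer 4 and 5 IT neurons, had 38.1 CPM in gated nuclei with SIK3 Ex13del and 103 CPM with SIK3 WT (0.369, 0.291 to 0.463), and 52.2 and 79.4 CPM in the cluster (0.657, 0.524 to 0.821). In gated nuclei of the thinned set its ratio was 1.61, the opposite direction. Kcnh5, a voltage-gated potassium channel, had 32.9 and 69.9 CPM in gated nuclei (0.470) and a cluster ratio of 0.613. Gm15680 had 33.6 and 99.6 CPM in gated nuclei (0.338) and a cluster ratio of 0.572. Shoc1 and Gm10635 were lower in the gated nuclei (0.405 and 0.506) and higher in the cluster (2.17 and 8.41), where 37 of 43 Gm10635 UMIs with SIK3 Ex13del lay in 1 nucleus. The summed L2/3 IT markers of the gated nuclei were 273 CPM with SIK3 Ex13del and 330 CPM with SIK3 WT, and their part in these ratios was not tested.

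Other lists did not separate the vectors in these nuclei. Of the 22 SIK pathway genes, 8 were higher with SIK3 Ex13del in the gated nuclei and 10 in the cluster, with medians of -0.04 and -0.03. Of the postsynaptic scaffolds, 8 of 19 were higher in the gated nuclei and 10 of 19 in the cluster (medians -0.02 and 0.01). Of the cholesterol synthesis genes, 8 of 11 were higher in the gated nuclei and 7 of 10 in the cluster, with medians of 0.08 and 0.05 and none and 1 past 1.5-fold.

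**Figure D5:**
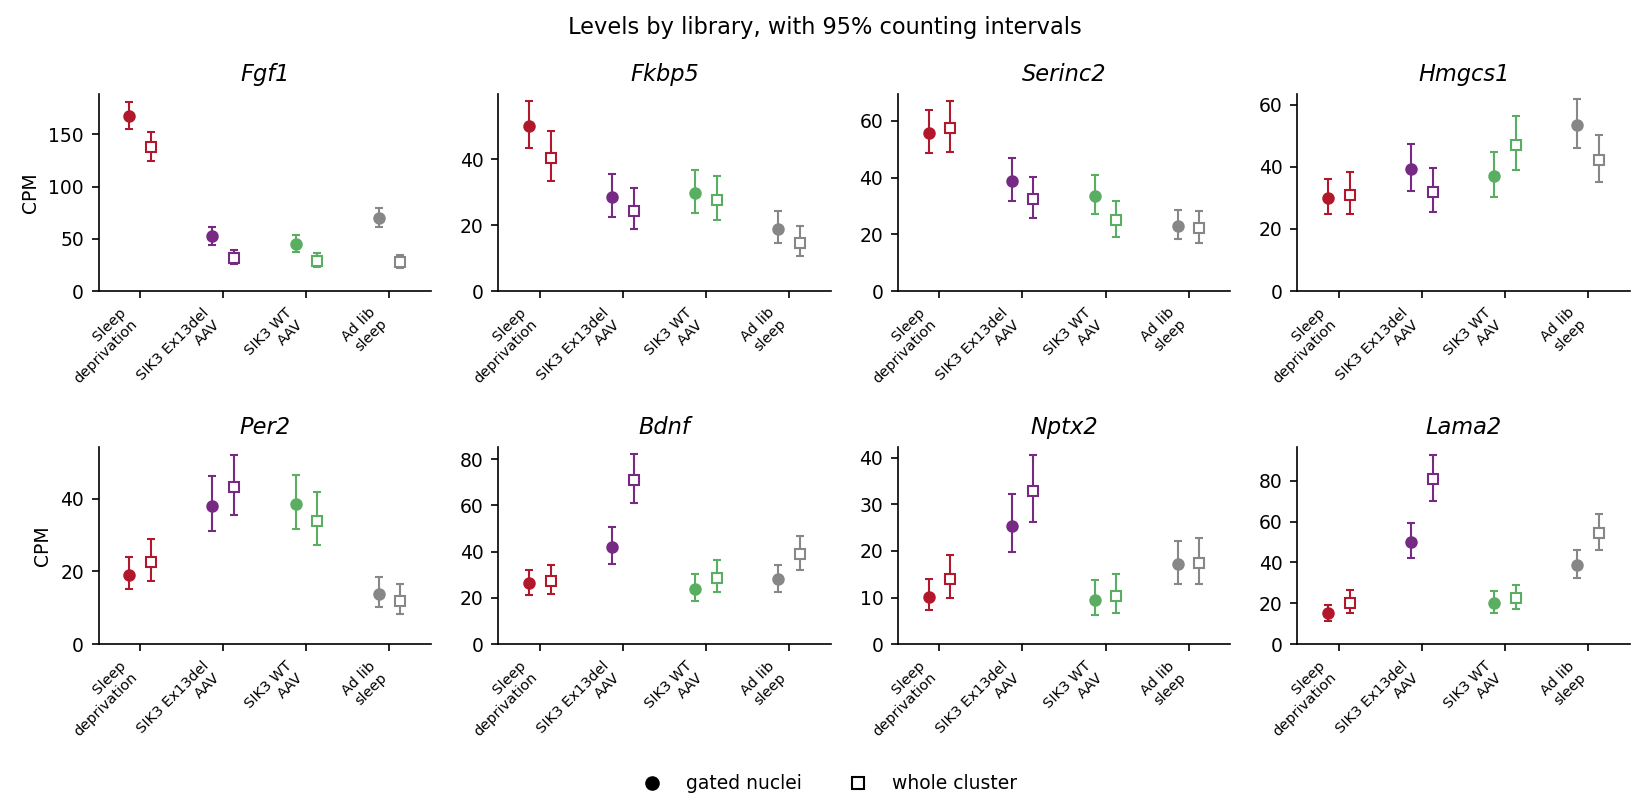
Points are CPM in each library for 8 genes, in gated nuclei (filled circles) and the whole cluster (open squares), with 95% counting intervals. Fgf1 is highest after sleep deprivation (138 CPM in the cluster against 27.9 to 32.1 CPM), Bdnf, Nptx2 and Lama2 are highest with SIK3 Ex13del, and Per2 is higher with either vector (43.3 and 34.0 CPM in the cluster) than after sleep deprivation or ad lib sleep (22.5 and 11.9 CPM).

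SIK3 WT against ad lib sleep shares its ad lib library with the sleep deprivation comparison, so the values are given side by side and their likeness is not a result. Of 6934 genes measured in gated nuclei, 96 were at least 1.5-fold higher with SIK3 WT (1.38%) and 127 at least 1.5-fold lower (1.83%). TMM scaling gave 126 higher and 108 lower, and median-of-ratios size factors 143 and 94. In the cluster 111 were higher (1.62%) and 120 lower (1.75%), and in both sets 28 (0.422%) and 33 (0.498%) of 6633. Ratios above 1 were found for 52.6% of measured genes in the gated nuclei and 54.5% in the cluster.

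Per2, a repressor of the circadian clock, had 38.5 CPM in gated nuclei with SIK3 WT and 13.9 CPM after ad lib sleep (2.77, 1.95 to 3.99), and 34.0 and 11.9 CPM in the cluster (2.86, 1.91 to 4.36). With SIK3 Ex13del it had 38.1 CPM in gated nuclei, and after sleep deprivation 19.2 CPM. Outside the ratio was 2.67, inhibitory nuclei had 19.3 CPM with SIK3 WT and 12.4 CPM after ad lib sleep, and oligodendrocyte nuclei 26.5 and 11.2 CPM, from 44 and 23 UMIs. Per1 and Bhlhe40, further genes of the clock, had gated ratios of 1.54 and 1.65 and cluster ratios of 1.49 and 1.18, and Bhlhe40 had the opposite direction in the thinned set (0.645). Of 14 core clock and output genes, 12 were higher with SIK3 WT in the gated nuclei (median 0.23), and 12 of 13 in the cluster (0.09), where the medians of all measured genes were 0.01 and 0.03. In gated nuclei thinned to 5000 UMIs, where 6 of these genes were measured, the median was -0.0071. Time of day is not in the labels, and it cannot be told apart from the groups.

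Fkbp5 had 29.7 CPM in gated nuclei with SIK3 WT and 18.9 CPM after ad lib sleep (1.57, 1.12 to 2.21) and a cluster ratio of 1.89, against gated and cluster ratios of 2.65 and 2.76 for sleep deprivation over the same library. Zbtb16 had 134 and 79.2 CPM in gated nuclei (1.70) and a cluster ratio of 1.5. Of the 9 glucocorticoid-responsive genes, 8 were higher in the gated nuclei (median 0.15) and 7 in the cluster (0.28). Neto2, an auxiliary subunit of kainate receptors, had 87.9 and 50.5 CPM in gated nuclei (1.74) and a cluster ratio of 1.73, and Tmem200a 45.5 and 21.9 CPM (2.08) and a cluster ratio of 2.17.

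AC149090.1 had 204 CPM in gated nuclei with SIK3 WT and 434 CPM after ad lib sleep (0.471, 0.427 to 0.519), and 247 and 499 CPM in the cluster (0.495). Over all libraries it had 572 CPM after sleep deprivation, 355 CPM with SIK3 Ex13del, 204 CPM with SIK3 WT and 434 CPM after ad lib sleep in gated nuclei. Outside, the levels were 545, 389, 195 and 464 CPM, the same order of libraries. Lama2 had 20.1 and 39.0 CPM in gated nuclei (0.516) and 22.5 and 54.4 CPM in the cluster (0.414). Tafa1, a secreted chemokine-like protein, had 744 CPM with SIK3 WT and 318 CPM after ad lib sleep in gated nuclei (2.34), but 117 and 81.2 CPM in the cluster (1.44). The interneuron peptide Vip, the oligodendrocyte genes St18, Cnp and Trf, and Dock10 were also among the named genes of the gated nuclei, with ratios of 2.16, 0.417, 0.481, 0.504 and 0.468, and had cluster ratios of 0.581, 0.814, 0.745, 0.618 and 1.12. Vip and Dock10 changed side, and the summed interneuron markers of the gated nuclei were 694 CPM with SIK3 WT and 514 CPM after ad lib sleep, and those of oligodendrocytes 274 and 354 CPM.

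Of the postsynaptic scaffolds 18 of 19 were higher with SIK3 WT in the gated nuclei (median 0.15) and 15 of 19 in the cluster (0.06), and of the cytosolic chaperones 13 of 15 (0.21) and 11 of 15 (0.08). Of the SIK pathway genes 13 of 22 and 15 of 22 were higher (medians 0.04 and 0.07), and of the cholesterol synthesis genes 4 of 10 and 2 of 10 (medians -0.18 and -0.10).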

How the data were processed

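The deposited files are count matrices, 1 per library, with whole-number UMI counts per gene and barcode and no normalization, per the file headers. Per the submitters' processing notes the authors used Cell Ranger 6.1.2 and the mm10 build, on 10x 3' libraries (v3.1 chemistry), per the labels' protocols. Of the columns of per-sample values, 0 were left unused. The members and the gene lists were chosen with earlier results of these data known.

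Doublets were not removed from the main sets. Scrublet (scanpy 1.11.5) called 0, 4, 0 and 1 nuclei by its automatic threshold in the sleep deprivation, SIK3 Ex13del, SIK3 WT and ad lib libraries, which is too few. The highest-scoring 0.8% per 1000 barcodes was therefore left out as an alternative. It called 15.4%, 9.63%, 6.70% and 18.8% of the gated nuclei. Of the excitatory nuclei outside the gate and the cluster it called 6.00%, 6.78%, 7.58% and 9.79%. Excitatory nuclei were scaled to 10000 counts, logged, centred within library, reduced to 2000 variable genes without the gate's genes and to 30 components, and clustered with leidenalg 0.10.2 (15 neighbours, resolution 1). A cluster took a name from at least 3 markers of a list among its 30 leading genes. L6 CT-like, L5 IT-like and L2/3 IT-like comparison groups were set by marker UMIs and hold no members, but cluster nuclei were not removed from them.

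UMIs were summed per library and set and given as CPM of that sum. Intervals are exact: Poisson for levels, conditional for ratios, Clopper-Pearson for shares. Log2 ratios use CPM + 1. Named genes are the 10 highest and 10 lowest gated ratios per comparison, list members past 1.5-fold, and the list members of highest level; others are said to be chosen after their values were seen or are named for a count. The calculations were tested on simulated counts. The alternatives changed the marker number, gene minimum, depth, doublets, set of nuclei, scaling (edgeR 4.0.16 TMM, DESeq2 1.42.0 size factors, mean per nucleus), expression floor, pseudocount and fold. Positions are from GENCODE vM21 by gene identifier.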

Additional observations from a re-analysis of the deposited data

How the results depend on the processing

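With 1 library per group, differences between mice were not measured. No paired analysis was possible because each group has 1 library. No cluster was mostly members (the highest share was 46.1%), so a set of such clusters gave no value; the 2 cluster sets were chosen after seeing the data. The causes of the changes below were not tested, except that fewer or more genes are measured under another floor.

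Shares of excitatory nuclei, in the order sleep deprivation, SIK3 Ex13del, SIK3 WT and ad lib sleep, were 15.3%, 14.2%, 13.3% and 13.3% with 3 of 8 markers, 4.32%, 3.92%, 3.53% and 3.92% with 5 of 8, 6.38%, 5.74%, 5.31% and 6.20% thinned, and 3.03%, 3.65%, 3.35% and 3.77% for members in their main cluster. The whole cluster gave 6.78% after sleep deprivation and 8.54% with SIK3 Ex13del.

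Genes past the fold in either direction numbered 392, 183 and 223 for sleep deprivation over ad lib sleep, SIK3 Ex13del over SIK3 WT and SIK3 WT over ad lib sleep. They were 190, 66 and 99 thinned, 129, 34 and 44 with a floor of 50 CPM, 1429, 1130 and 1271 with a floor of 5 CPM and 30 UMIs, 8404, 8180 and 8304 with no floor, and 56, 14 and 18 at 2-fold. With 3 of 8 markers the last 2 comparisons gave 72 and 113.

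Ratios of named genes that changed side were as follows. With 3 of 8 markers, Rarb was 1.59 for SIK3 Ex13del over SIK3 WT. With 5 of 8, Gm34544 was 0.819 for sleep deprivation, and Olfr115, Shoc1 and Gm10635 were 0.367, 1.88 and 2.21 for SIK3 Ex13del. Thinned, Svil, Gpc6 and Sox2ot were 0.205, 0.816 and 1.04 for sleep deprivation, Grik1, Dock10, Simc1, Pbx4, Rorb and Shoc1 were 0.428, 0.878, 0.794, 0.913, 1.61 and 1.71 for SIK3 Ex13del, and Sntg2, Tafa2, Vip, Cnp and Bhlhe40 were 0.699, 0.725, 0.899, 1.31 and 0.645 for SIK3 WT. For members in their main cluster, Svil, Gm34544, Gpc6 and Igsf11 were 0.617, 0.33, 0.926 and 0.771 for sleep deprivation, Olfr115, Neat1 and Shoc1 were 0.707, 0.742 and 1.41 for SIK3 Ex13del, and Gm10635, Vip, A330008L17Rik, Neat1 and Dock10 were 0 (no UMI with SIK3 WT), 0.759, 0.994, 1.52 and 1.22 for SIK3 WT. In the whole cluster, Dock10, Shoc1 and Gm10635 were 0.822, 2.17 and 8.41 for SIK3 Ex13del, and Gm10635, Vip and Dock10 were 0.264, 0.581 and 1.12 for SIK3 WT.

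List medians that changed side were the rapid immediate early genes for sleep deprivation (-0.39 for members in their main cluster, -0.28 in the whole cluster, -0.15 with the floor of 5 CPM, -0.18 with no floor, -0.0063 as the mean per nucleus), the glucocorticoid-responsive genes for sleep deprivation (-0.027 with a floor of 50 CPM), the endoplasmic reticulum folding genes for sleep deprivation (-0.24 thinned), and for SIK3 WT the mitochondrially encoded transcripts (-0.034 with 3 of 8 markers) and the core clock and output genes (-0.0071 thinned).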
